A study of Drosophila melanogaster with 9 samples.

Results

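The indirect flight muscles of Drosophila melanogaster power the wings and are built from arrays of actin thin filaments and myosin thick filaments. The response described here is the one that flight muscle shares when either filament is missing, read as the 6 arrays of the mutants Act88FKM88 and Mhc7 pooled, each genotype with equal weight, against the 3 arrays of the wild-type strain Canton-S. These are all 9 arrays of the study. Act88FKM88 is a null of Act88F, the actin gene of this muscle, and Mhc7 lacks myosin heavy chain in it. All flies were adult males aged 1 to 2 days and reared at 25 °C. Muscle was dissected from ethanol-dehydrated thoraces, and 3 independent biological replicates per genotype were hybridized to Affymetrix Drosophila Genome 2.0 arrays. Each mutant is a single allele, and the sources used here do not give the genetic background of the stocks beyond the named alleles, so background and allele cannot be told apart.

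Flight muscle actin and myosin are expressed in amounts that few other proteins of the fly reach. Cells hold such proteins in balance by chaperones, which fold them, by the ubiquitin-proteasome system, which degrades tagged proteins one by one, and by autophagy, which carries larger cargo to the lysosome. A flight muscle fibre is also packed with mitochondria, whose own ribosomes translate a small part of the respiratory chain.

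Values are log2 expression levels per probe set, and a difference is the mean of both mutant means minus the Canton-S mean, with its standard error (SE). A probe set was called when the Benjamini-Hochberg adjusted p from limma was under 0.1 and the difference at least 2-fold, the cutoffs that the study states. Only called changes are written as rose or fell. Both mutants were set against the same Canton-S arrays, so their separate differences share those controls and are given side by side. In bulk RNA, fewer cells of a type and less RNA per cell cannot be told apart.

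The targeted genes came first. Act88F lay at 14.10, 14.32 and 14.36 on the Canton-S arrays, 11.57, 11.79 and 11.03 on those of Act88FKM88 and 14.10, 14.25 and 14.14 on those of Mhc7. The actin mutant stood apart from both other genotypes, and Mhc7 overlapped Canton-S. Act88F sat at the top of the scale in Canton-S, and saturation was not tested. Mhc is not analysed here, since no probe set is annotated to it alone, so the label Mhc7 has no such check. Of 12 flight muscle markers 10 were measured, at 7.79 to 14.26 in Canton-S. Markers of testis and accessory gland (2.54 to 2.91), gut (3.35 to 3.57), neurons (3.50 to 3.67) and glia (3.00 to 3.05) were near the array median of 3.11 there. The glial marker alrm lay at 2.67, 3.35 and 2.98 in Canton-S, 5.19, 6.29 and 3.00 on the Act88FKM88 arrays and 2.54, 5.07 and 4.70 on the Mhc7 arrays. The groups overlapped, and its pooled difference of 1.47 ± 0.73 did not pass (adjusted p = 0.359), while repo, the other glial marker, was at -0.07. Some transcripts of neighbouring tissue were present in Canton-S: Lsp2 (7.46) and Fbp1 (6.39) of fat body, Gasp (9.08) of trachea, and Act79B (11.04) and TpnC41C (8.59) of tubular muscle. Act79B and TpnC41C had higher means for Act88FKM88 (12 and 9.65) and lower means for Mhc7 (10.34 and 7.07). Their pooled differences of 0.14 and -0.23, neither called, thus average opposite differences. The remaining measured tubular muscle marker, TpnC73F, was dimmer (3.89), with mutant means of 4.27 (Act88FKM88) and 3.97 (Mhc7). Arrays of 1 genotype correlated at r = 0.978 to 0.988 across probe sets, and arrays of different genotypes at 0.956 to 0.977.

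The pooled comparison called 331 of 18769 probe sets (1.76%), of which 278 were higher (1.48%) and 53 lower (0.282%) in the mutants. They name 279 genes, and 3131 probe sets had an unadjusted p under 0.05. Among the calls, 248 (74.9%) had no overlap between the 6 mutant and the 3 Canton-S arrays, against 1601 (8.53%) of all probe sets. The calls were chosen on these same arrays, so their larger share is a description and no separate support. The count of calls was 227 without Canton-S 1 and 448 without Canton-S 3, and 180 calls were kept whichever single array was left out. The share of higher calls depended on the scale: 84% as deposited, 45.4% (89 higher, 107 lower) with quantile normalization repeated, and 29.4% (96 higher, 230 lower) with each array centred on its cytosolic ribosomal protein genes. That centring shifted the median of all probe sets by -0.45. It rests on the 40 measured of 92 listed ribosomal protein genes. Their mean level was 9.31 in Canton-S 1, 9.79 and 9.85 in Canton-S 2 and Canton-S 3, and 9.88 to 10.08 in the mutants. Their median difference was 0.37, and 0.14 without Canton-S 1, so the size of the shift depends in part on that array. Of the 278 higher calls, 89 were still called higher after repeated quantile normalization, and of the 53 lower calls, 52 were still called lower.

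The arrays themselves differed in their upper range. The 95th percentile was 7.26, 7.35 and 7.47 in Canton-S, 7.70, 7.96 and 7.57 for Act88FKM88 and 7.77, 8.15 and 8.05 for Mhc7. Every mutant array lay above every Canton-S array. The pooled difference was 0.50 (exact permutation p = 0.0238 over 84 splits, two-sided; 0.0119 is the smallest possible). Without Canton-S 1 it was 0.45 (exact permutation p = 0.0714, from fewer possible splits). Calls followed level as well: 0.0202% of probe sets with a mean under 4 were called higher, 11.5% of those at 6 to 8, 17.2% of those at 8 to 10 and 5.76% of those at 10 and above. RMA, by which the values were made, includes a quantile step that gives the arrays run together the same distribution of probe intensities before they are summarised per probe set. The sources used here do not say whether the 9 arrays were run together, so a difference in processing and one in RNA cannot be told apart in the 0.50. Of the 74 named probe sets past the threshold, 42 were called under both other scalings, 1 under repeated quantile normalization alone, 8 under centring alone and 23 under neither. Losses of named calls under these scalings are given with each gene.

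**Figure D1:**
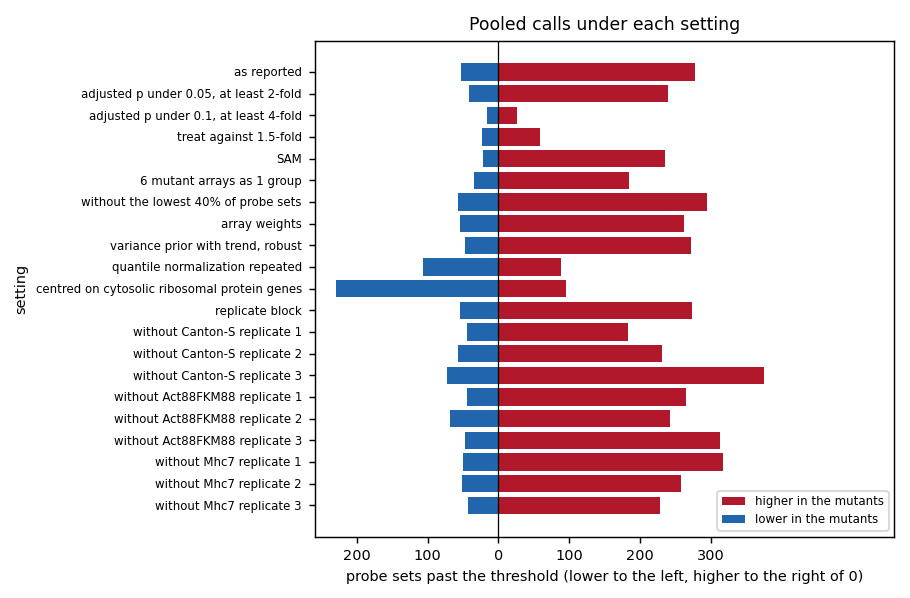
Number of probe sets called lower (left of 0) and higher (right of 0) in the pooled mutants under each setting. The deposited scale gave 278 higher and 53 lower, while repeated quantile normalization gave 89 and 107, and centring on cytosolic ribosomal protein genes 96 and 230.

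The calls were compared between the mutants in a contrast that uses no Canton-S array. Of the 331, 156 were at least 2-fold on the same side in both mutants (124 higher, 32 lower), 125 in Mhc7 alone and 50 in Act88FKM88 alone. In 10 the mutants lay on opposite sides of Canton-S. The median difference of the 278 higher calls was 1.24, with 1.07 in Act88FKM88 and 1.47 in Mhc7, and that of the 53 lower calls was -1.68, with -1.63 and -1.68. A direct difference between the mutants passed the same threshold for 79 of the 331 (23.9%), with 28 higher in Act88FKM88 and 51 higher in Mhc7. Among all probe sets it passed for 336 (1.79%).

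**Figure D2:**
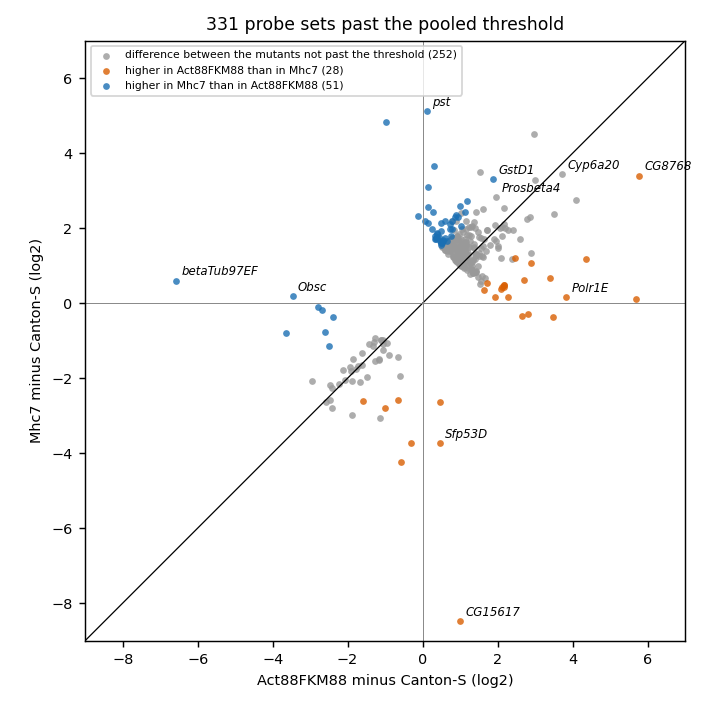
Act88FKM88 minus Canton-S (x axis, log2) against Mhc7 minus Canton-S (y axis, log2) for the 331 called probe sets, which share the Canton-S arrays. The diagonal marks equal differences; 28 coloured points were higher in Act88FKM88 than in Mhc7, 51 were higher in Mhc7, and for the 252 grey points that difference did not pass.

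Subunits of the proteasome rose across the complex in the pooled comparison. Of 12 measured core-particle subunits, which form the proteolytic barrel, 11 rose and none fell, with a median difference of 1.35. Of 15 measured regulatory-particle subunits, which recognise and unfold ubiquitinated proteins, 15 rose, also with a median of 1.35. Among all 11982 genes 228 rose (1.9%) and 43 fell (0.359%), with a median of 0. The median was 1.09 in Act88FKM88 and 1.58 in Mhc7 for the core, and 1.01 and 1.73 for the regulatory particle. No overlap between mutant and control arrays was seen for 10 core and 12 regulatory subunits, and for 743 (6.2%) of all genes on the higher side. Of the 27 subunits, Rpt4, an ATPase of the regulatory particle, was the 1 whose mutants differed directly, higher in Mhc7.

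The mean level of the core subunits was 6.51, 6.55 and 7.10 in Canton-S, 7.49, 7.64 and 8.30 for Act88FKM88 and 8.45, 8.49 and 8.76 for Mhc7. The 3 genotypes did not overlap. For the regulatory subunits it was 6.01, 6.14 and 6.41 in Canton-S, 6.80, 6.97 and 7.84 for Act88FKM88 and 7.84, 7.75 and 8.23 for Mhc7. Here both mutants lay above Canton-S and the highest Act88FKM88 array reached into the range of Mhc7.

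Prosbeta4, a core beta subunit, lay at 5.74, 5.94 and 6.54 in Canton-S, 7.71, 7.77 and 8.62 on the Act88FKM88 arrays and 8.78, 8.75 and 9.15 on the Mhc7 arrays. Every mutant array was above every control, and Prosbeta4 rose by 2.39 ± 0.24 (adjusted p = 0.00119). The core alpha subunits Prosalpha6 and Prosalpha2 rose by 2.06 ± 0.26 and 1.92 ± 0.25. In the regulatory particle, Sem1, a small lid subunit, lay at 4.85, 4.89 and 4.96 in Canton-S, 6.24, 6.54 and 7.08 on the Act88FKM88 arrays and 6.78, 6.72 and 7.09 on the Mhc7 arrays. The mutants overlapped each other and not the controls, and Sem1 rose by 1.84 ± 0.17 (adjusted p = 0.000821). The lid subunit Rpn3 and the scaffold subunit Rpn2 rose by 1.70 ± 0.22 and 1.67 ± 0.27. The 1 measured core subunit that did not pass, Prosbeta2, was at 0.93, just under 2-fold.

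In the fits without 1 array, 9 to 12 core and 10 to 15 regulatory subunits passed the threshold. With quantile normalization repeated the medians were 0.83 and 0.92, and 5 and 4 subunits rose. With centring both medians were 0.90, and again 5 and 4 rose.

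**Figure D3:**
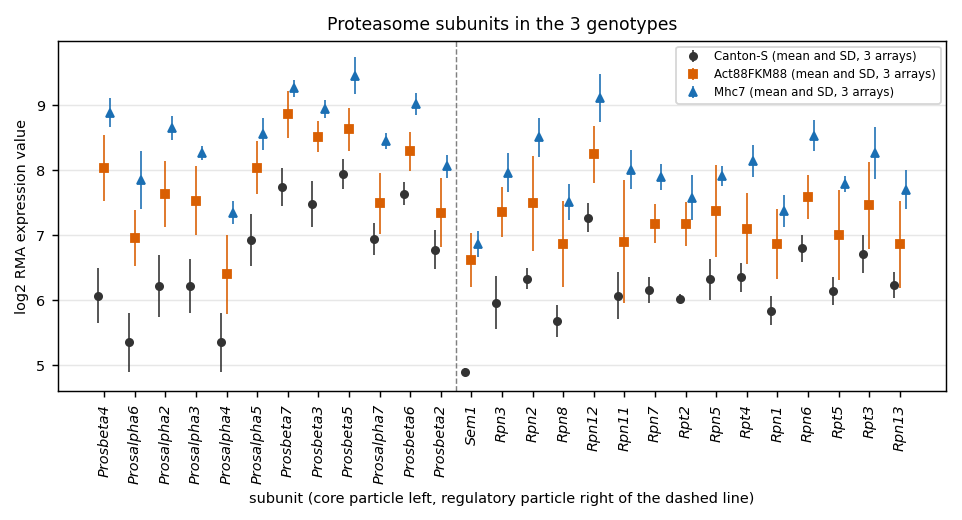
Log2 level of each measured proteasome subunit in Canton-S, Act88FKM88 and Mhc7 (mean and SD, 3 arrays each). The mean of every one of the 27 subunits was higher in both mutants than in Canton-S.

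Genes around the proteasome gave fewer calls. None of 12 paralogues that are specific to the testis proteasome passed (median -0.05), and none had an unadjusted limma p under 0.05, which 2330 (19.4%) of all genes had. Their levels were near background, as for Prosbeta4R2, at 2.89 in Canton-S and 2.69 and 2.81 in the mutants. Of 27 genes for proteasome assembly and ubiquitin handling, 4 rose (14.8%, beside 1.9% of all genes) and none fell (median 0.42). They included TER94, the AAA ATPase that extracts ubiquitinated proteins from complexes and membranes (1.36 ± 0.13, adjusted p = 0.00119), its cofactor Ufd1 (1.14 ± 0.19) and the shuttle receptor Rad23 (1.16 ± 0.17). TER94 was at 1.99 in Mhc7 and 0.73 in Act88FKM88, and the mutants differed directly (adjusted p = 0.00466). The count was 2 without Canton-S 1 and 0 under both other scalings, and the call for Rad23 was lost without Canton-S 1 (1.00).

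Autophagy genes split. Of 26 measured, 3 rose (11.5%) and 1 fell (3.85%), beside 1.9% and 0.359% of all genes, with a median of 0.16. Atg8a, the ubiquitin-like protein of the autophagosome membrane, lay at 8.58, 9.23 and 9.48 in Canton-S, 10.22, 10.15 and 10.41 on the Act88FKM88 arrays and 10.83, 10.48 and 10.63 on the Mhc7 arrays. The groups did not overlap, and Atg8a rose by 1.36 ± 0.18 (adjusted p = 0.00354). The receptor gene ref(2)P, the fly p62, rose by 1.54 ± 0.38 (adjusted p = 0.0578), with overlap between Act88FKM88 2 (5.29) and Canton-S 3 (5.55). The initiating kinase gene Atg1 rose by 1.12 ± 0.29 (adjusted p = 0.072). Snap29, a SNARE that fuses autophagosomes with lysosomes, lay at 6.77, 7.16 and 7.16 in Canton-S, 4.45, 5.31 and 4.95 on the Act88FKM88 arrays and 5.12, 5.31 and 5.37 on the Mhc7 arrays. It was below the controls in every mutant array and fell by 1.95 ± 0.18 (adjusted p = 0.000849). The calls for Atg8a and Snap29 were kept without any 1 array. For ref(2)P the adjusted p reached 0.225 and the call failed on removing Mhc7 1, Mhc7 3, Act88FKM88 1, Canton-S 1 or Canton-S 2. For Atg1 it reached 0.258 and the call failed on removing Mhc7 1, Mhc7 3, Act88FKM88 1, Act88FKM88 3, Canton-S 1 or Canton-S 3. With quantile normalization repeated none of the 3 rises passed, and with centring only ref(2)P did. The list medians were then 0.03 and -0.29. Of 31 subunits of the vacuolar proton pump, which acidifies lysosomes, 2 rose (6.45%), Vha36-1 (1.04 ± 0.14) and Vha14-1 (1.02 ± 0.12), and the list median was 0.19. Neither passed under either other scaling, and the median was 0.05 with quantile normalization repeated and -0.26 with centring. The call for Vha36-1 was lost without Act88FKM88 2 (0.95), and that for Vha14-1 failed on removing Mhc7 3, Act88FKM88 2 or Canton-S 1 (down to 0.93).

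Chaperone lists gave fewer calls than the proteasome lists. None of 8 subunits of the cytosolic chaperonin, which folds actin and tubulin, passed (median 0.11, and -0.17 with quantile normalization repeated), and 1 had an unadjusted p under 0.05. CCT7 was at 0.53 ± 0.23 (adjusted p = 0.297). None of 4 measured inducible heat shock genes, of 15 listed, passed (median 0.08), none of them with an unadjusted p under 0.05. The Hsp70A and Hsp70B genes, Hsp22 and Hsp23 were not measured. Hsp26, a small heat shock protein, was at 1.03 ± 0.57 (adjusted p = 0.42). Hsp83, the cytosolic Hsp90 gene, was not measured either. Of 15 measured genes of the cytosolic Hsp70 and Hsp90 system 2 rose (13.3%, beside 1.9% of all genes, median 0.72). They were the Hsp40 co-chaperones DnaJ-1 (1.35 ± 0.37, adjusted p = 0.0863) and DnaJ-H (1.05 ± 0.22, adjusted p = 0.0281). Neither passed under either other scaling (list medians 0.30 and 0.27), nor without Canton-S 1 or Mhc7 3. DnaJ-1 also failed on removing Mhc7 1, Mhc7 2, Act88FKM88 1 or Canton-S 3, with a highest adjusted p of 0.301. DnaJ-H also failed on removing Act88FKM88 3 or Canton-S 2, with a highest adjusted p of 0.12. In the list of 19 genes for stress of the endoplasmic reticulum 2 rose (10.5%). They were Sec61gamma, a subunit of the protein translocation channel (1.84 ± 0.21), and the eIF2alpha kinase gene PEK (1.54 ± 0.39, adjusted p = 0.0589). The call for PEK failed on removing Mhc7 3, Act88FKM88 1, Canton-S 1 or Canton-S 3, and its adjusted p reached 0.234. PEK was called with centring but not with quantile normalization repeated, and Sec61gamma under both.

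Mitochondrial ribosomal proteins formed the longest list of rises, and it was uneven between the mutants. Of 71 measured genes 28 rose and none fell, with a median of 0.87. The median was 0.43 in Act88FKM88 and 1.42 in Mhc7, and 30 of the 71 differed directly between the mutants, all 30 higher in Mhc7. The mean level of the list was 7.80, 7.65 and 8.24 in Canton-S, 8.21, 8.70 and 7.91 for Act88FKM88 and 8.87, 9.57 and 9.26 for Mhc7. The actin mutant overlapped Canton-S, while every Mhc7 array lay above all other arrays.

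Members differed in this respect. The large-subunit gene mRpL33 lay at 9.04, 8.87 and 9.64 in Canton-S, 10.69, 10.99 and 10.53 on the Act88FKM88 arrays and 10.68, 11.17 and 10.89 on the Mhc7 arrays. The mutants overlapped each other above the controls, and mRpL33 rose by 1.64 ± 0.18 (adjusted p = 0.00191). For mRpL4, also of the large subunit, the arrays gave 5.94, 5.69 and 6.49 in Canton-S, 7.01, 7.56 and 7.12 for Act88FKM88 and 8.22, 9.40 and 8.68 for Mhc7. It rose by 1.96 ± 0.26, with no overlap among the 3 genotypes, and the mutants differed by -1.54 (Act88FKM88 minus Mhc7, adjusted p = 0.0358). The count of 28 was 17 without Canton-S 1, 18 without Canton-S 2 or without Act88FKM88 2, and 38 without Canton-S 3. It was 16 when differences between the mutants counted as spread, 3 with quantile normalization repeated (median 0.34) and 4 with centring (median 0.42).

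Other mitochondrial lists gave fewer calls. Of import genes 18.8% rose, of chaperone and protease genes 12.5%, and of translation factor and RNA genes 14.3%, beside 1.9% of all genes. Of 16 import genes 3 rose (median 0.54): Tim9a, a small chaperone of the intermembrane space (1.68 ± 0.38, adjusted p = 0.0395), the inner-membrane channel gene Tim23 (1.14 ± 0.14) and Tim8 (1.07 ± 0.17). None of the 3 passed without Canton-S 1, and 1 passed without Canton-S 2. Under both other scalings Tim9a was called and Tim23 and Tim8 were not, with a list median of 0.09 each time. Of 16 mitochondrial chaperone and protease genes 2 rose (median 0.43), CG11267 (1.29 ± 0.25) and the protease gene Afg3l2 (1.11 ± 0.12); CG11267 lost its call without Canton-S 1 (adjusted p = 0.101). Neither was called under either other scaling, where the list median was 0.06 with quantile normalization repeated and -0.02 with centring. Of 14 genes for mitochondrial translation factors and RNA 2 rose (median 0.11). They were the release factor gene mRF1, at 0.15 in Act88FKM88 and 3.10 in Mhc7, and the elongation factor gene mEFTs, at 0.53 and 1.65. The call for mEFTs failed on removing Mhc7 2, Act88FKM88 2, Canton-S 1 or Canton-S 2, and its adjusted p reached 0.163. Under both other scalings mRF1 was called and mEFTs was not.

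The respiratory chain itself gave 1 call. None of 32 complex I, 16 ATP synthase or 12 citric acid cycle genes passed, with medians of 0.28, 0.22 and 0.24. Of 28 genes of complexes II to IV, UQCR-11, a small subunit of complex III, rose by 1.15 ± 0.19, a call lost with centring. None of 17 genes of glycolysis and glycogen passed (median 0.26). At an unadjusted limma p under 0.05, which 19.4% of all genes had, there were 12 genes of complex I (11 higher) and 7 of glycolysis and glycogen (6 higher). Of ATP synthase and of the citric acid cycle there were 5 each, all higher. The complex I mean level was 9.78 in Canton-S 1, 10.29 and 10.28 in the other controls and 10.25 to 10.44 in the mutants. With 1 array left out, the lowest medians were 0.07 for complex I, 0.06 for ATP synthase, 0.09 for citric acid cycle and 0.09 for glycolysis. The list medians were -0.08, 0.00, 0.02 and -0.08 for complex I, ATP synthase, citric acid cycle and glycolysis with quantile normalization repeated, and all 4 were below 0 with centring.

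In cytosolic translation, 4 of 44 initiation and elongation factor genes rose (9.09%, beside 1.9% of all genes, median 0.33) and none fell. The cap-binding protein gene eIF4E1 lay at 9.03, 9.08 and 9.33 in Canton-S, 10.12, 10.36 and 9.93 on the Act88FKM88 arrays and 10.44, 10.73 and 10.61 on the Mhc7 arrays. The groups did not overlap, and eIF4E1 rose by 1.22 ± 0.12 (adjusted p = 0.00101). The genes eIF1 and eIF3i, of the start-codon machinery, each rose by 1.07, with SE of 0.09 and 0.10. Of 40 cytosolic ribosomal protein genes none passed (median 0.37, 0.14 without Canton-S 1), although 26 of them had an unadjusted limma p under 0.05, all higher. RpLP0, of the ribosomal stalk, was at 0.72 ± 0.14 (adjusted p = 0.0236). None of 29 aminoacyl-tRNA synthetase genes passed (median 0.19), with 10 at an unadjusted p under 0.05, all higher. GluProRS, which that list did not include and which was chosen after its values were seen, rose by 1.18 ± 0.27. Without Canton-S 1 the count of factors was 2, with eIF1 at 1.00, and under both other scalings it was 0. Of 27 genes for ribosome biogenesis and RNA polymerase I, Polr1E rose (median -0.01 over the list).

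Sarcomere genes mostly stayed below the threshold. The list for Z-disc and myofibril assembly held 27 measured genes, of which 2 rose (7.41%, beside 1.9% of all genes) and none fell (median 0.19). Zasp66, a PDZ protein of the Z-disc, lay at 9.55, 10.10 and 9.91 in Canton-S, 11.94, 11.97 and 11.97 on the Act88FKM88 arrays and 11.87, 11.86 and 11.90 on the Mhc7 arrays. The mutant arrays lay close together and above every control. Zasp66 rose by 2.06 ± 0.11 (adjusted p = 3.85e-05), and 2 further probe sets of this gene rose by 2.12 and 1.38. Mlp60A, a muscle LIM protein, rose by 1.18 ± 0.15. Both calls were kept without any 1 array, and Zasp66 was also called under both other scalings, Mlp60A under neither.

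Of 13 thin filament genes 1 rose and 1 fell (7.69% each, beside 1.9% and 0.359% of all genes, median 0.23). Fhos, a formin of actin assembly, rose by 1.04 ± 0.15, and dropped under 2-fold on removing Act88FKM88 2, Canton-S 1 or Canton-S 2 (down to 0.95). Fhos was not called under either other scaling. Act88F fell by 1.45 ± 0.15 in the pooled comparison, at -2.80 in Act88FKM88 and -0.10 in Mhc7. A dimmer probe set of tmod, which caps thin filaments, was called at 1.23 (2.29 in Act88FKM88, 0.17 in Mhc7), and was noted after its values were seen because the list counts each gene once by its brightest probe set. Of 9 thick and connecting filament genes Obsc, the M-line protein obscurin, was the 1 called. It lay at 11.98, 12.35 and 12.08 in Canton-S, 8.67, 9.15 and 8.19 for Act88FKM88 and 12.34, 12.42 and 12.23 for Mhc7, so it fell by 1.64 ± 0.18 in the pooled comparison with Mhc7 overlapping the controls. None of the 8 measured genes of flight muscle fate and splicing, of 15 listed, passed (median 0.14). The fate gene salr was at 0.72 ± 0.12. Mef2, bru1, exd, hth, how, sd and E2f1 were not measured, so the list leaves these regulators open. In that list and among the calcium handling genes, 3 each had an unadjusted p under 0.05, all higher. None of 16 calcium handling genes passed (median 0.18) by its brightest probe set. A second probe set of the channel gene Orai was called at 1.27 (2.82 in Act88FKM88, -0.28 in Mhc7) and was likewise noted after the fact. Of 13 tubulin and motor genes 1 rose (7.69%) and 2 fell (15.4%, median -0.03), with betaTub97EF, described with the calls set by 1 mutant, among the falls. The gene tau, a microtubule-binding protein, rose by 1.08 ± 0.30 (adjusted p = 0.0868) and betaTub56D fell by 1.25 ± 0.29 (adjusted p = 0.0445). The call for tau was lost under both other scalings and, among the fits without 1 array, kept only without Mhc7 1 (adjusted p up to 0.271), and that for betaTub56D failed on removing Mhc7 3, Canton-S 1 or Canton-S 2, with a highest adjusted p of 0.171.

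**Figure D4:**
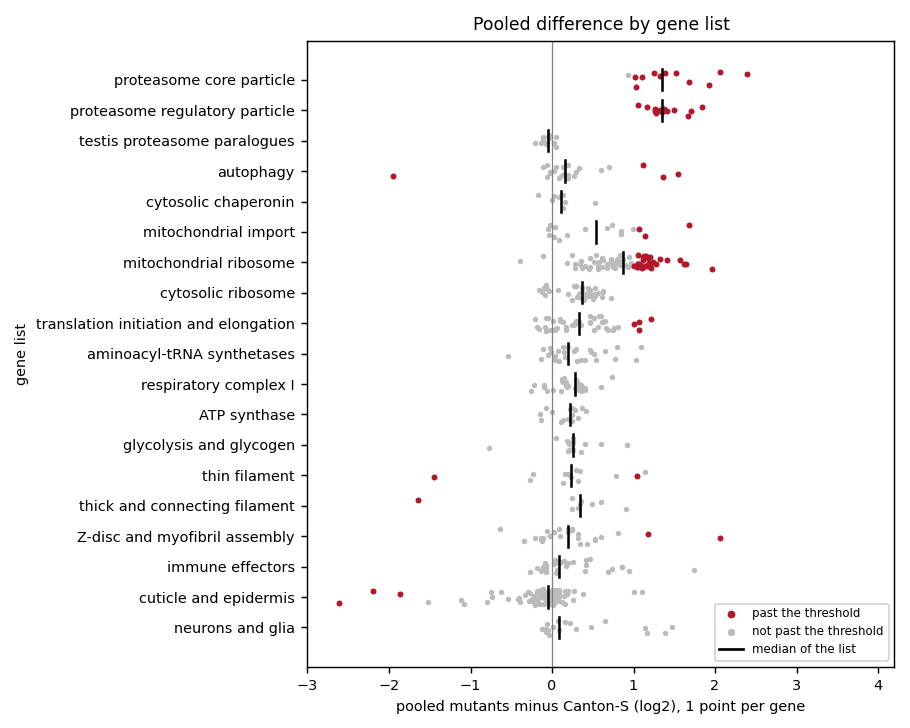
Pooled mutants minus Canton-S (x axis, log2) for each gene of 19 lists, 1 point per gene, with called genes in red and the list median as a black bar. Both proteasome lists had medians of 1.35 and the mitochondrial ribosome list 0.87, while the medians of cytosolic chaperonin (0.11), immune effectors (0.09) and cuticle genes (-0.05) were near 0.

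The largest rises shared by the mutants were led by genes outside these complexes. CG8768 lay at 3.73, 3.22 and 3.31 in Canton-S, 9.29, 9.45 and 8.86 on the Act88FKM88 arrays and 7.45, 7.15 and 5.86 on the Mhc7 arrays. It rose by 4.59 ± 0.32 (adjusted p = 0.000155), and every Act88FKM88 array was above every Mhc7 array. The cytochrome P450 gene Cyp6a20 lay at 2.97, 2.97 and 3.17 in Canton-S, 6.87, 7.01 and 6.37 on the Act88FKM88 arrays and 6.76, 6.89 and 5.77 on the Mhc7 arrays. The mutants overlapped each other, and Cyp6a20 rose by 3.58 ± 0.24 (adjusted p = 0.000145). Both genes were near the array median in Canton-S, so background limits the size of their difference.

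The glutathione S-transferase gene GstD1, a detoxification enzyme, lay at 8.02, 8.07 and 8.71 in Canton-S, 10.11, 9.43 and 10.87 on the Act88FKM88 arrays and 11.46, 11.53 and 11.71 on the Mhc7 arrays. The 3 genotypes were apart, and GstD1 rose by 2.58 ± 0.28 (adjusted p = 0.00162). The peroxiredoxin gene Prx6c rose by 2.52 ± 0.56 (adjusted p = 0.0358), with arrays spread from 6.99 to 8.51 in Canton-S and from 9.09 to 11.81 in the mutants. Its call failed on removing Canton-S 1 or Canton-S 2, and its adjusted p reached 0.17. It was called with centring but not with quantile normalization repeated. Of 35 glutathione S-transferase genes 2 rose (5.71%, median 0.24), of 81 cytochrome P450 genes 2 rose (2.47%) and 1 fell (median -0.01), and of 24 antioxidant genes 2 rose (8.33%, median 0.14), beside 1.9% of all genes. The second antioxidant gene was Gtpx, a glutathione peroxidase (1.26 ± 0.15), which was not called under either other scaling. The second transferase, GstE11, rose by 1.72 ± 0.48 (adjusted p = 0.0911) and failed on removing any 1 of the Canton-S arrays, Mhc7 1, Mhc7 3 or Act88FKM88 1, with a highest adjusted p of 0.27, and with quantile normalization repeated. A dimmer probe set of the extracellular superoxide dismutase gene Sod3 was called at -1.76 (-1.77 in Act88FKM88, -1.75 in Mhc7), noted after its values were seen.

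Among the rest, kar, a monocarboxylate transporter-like gene, rose by 2.59 ± 0.39, CG8745 by 2.16 ± 0.33 and CG14270 by 2.13 ± 0.19, and these 3 calls were kept without any 1 array. CG14270 was nearly the same in both mutants, at 2.16 and 2.10. The lipocalin gene NLaz, a homologue of apolipoprotein D, lay at 4.04, 7.44 and 8.01 in Canton-S, 9.93, 9.38 and 10.67 on the Act88FKM88 arrays and 9.18, 8.14 and 9.29 on the Mhc7 arrays. Canton-S 1 stood far below the other controls. NLaz rose by 2.93 ± 0.77 (adjusted p = 0.073), with 1.70 as the lowest difference when 1 array was left out, and its call failed on removing Mhc7 1, Mhc7 3, Act88FKM88 1, Act88FKM88 3 or Canton-S 2, with a highest adjusted p of 0.152. The asparagine synthetase gene AsnS rose by 2.35 ± 0.58 (adjusted p = 0.0551) and kept its call only on removing Mhc7 2, Act88FKM88 2 or Act88FKM88 3, with a highest adjusted p of 0.214. CG32548 and puml rose by 2.52 ± 0.59 and 2.18 ± 0.53, and both failed on removing Mhc7 3, Canton-S 1 or Canton-S 2, with highest adjusted p of 0.155 and 0.191. With quantile normalization repeated NLaz, AsnS and puml were not called, while all 4 of these genes were with centring.

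**Figure D5:**
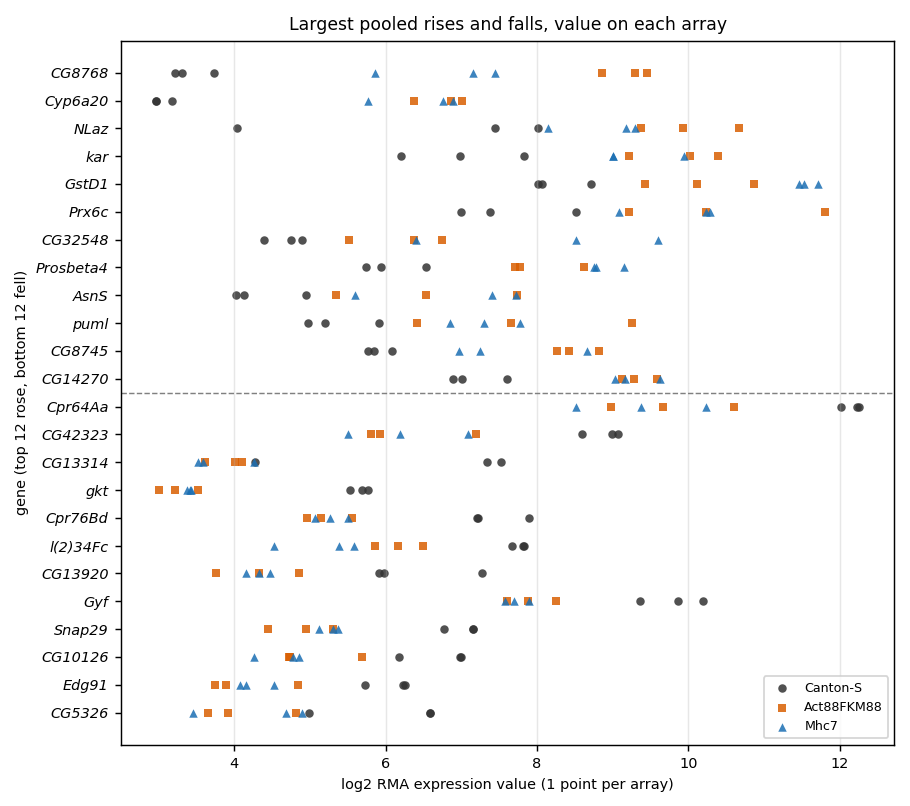
Log2 level on each array of the 12 largest rises and the 12 largest falls, among probe sets of 1 gene whose 6 mutant arrays all lie on one side of the 3 Canton-S arrays. Mutant arrays lie to the right of Canton-S above the dashed line and to its left below it; CG13314 and CG5326 are nearly touching through Canton-S 3.

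The largest shared falls included cuticle genes. Cpr64Aa, a structural cuticle protein, lay at 12.26, 12.23 and 12.02 in Canton-S, 9.67, 10.60 and 8.98 on the Act88FKM88 arrays and 8.51, 10.24 and 9.38 on the Mhc7 arrays. It was lower in every mutant array and fell by 2.61 ± 0.40 (adjusted p = 0.0068). Cpr76Bd and Edg91, also of the cuticle, fell by 2.20 ± 0.19 and 1.87 ± 0.24. Of 108 cuticle and epidermis genes these 3 fell (2.78%, beside 0.359% of all genes) and none rose (median -0.05). The log2 of the list's summed level was 13.44 to 14.43 in Canton-S and 12.68 to 14.30 in the mutants, which overlapped, and the part of carried-over cuticle tissue in these falls was not tested. Of the list, 9 genes had all mutant arrays below all controls, against 392 (3.27%) of all genes. With quantile normalization repeated 5 members fell, and with centring 10.

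Other falls were of single genes. The DNA repair gene gkt, a tyrosyl-DNA phosphodiesterase, lay at 5.69, 5.53 and 5.77 in Canton-S, 3.00, 3.22 and 3.52 on the Act88FKM88 arrays and 3.43, 3.37 and 3.41 on the Mhc7 arrays. The mutants were at background level, and gkt fell by 2.34 ± 0.11 (adjusted p = 1.89e-05). Gyf, a GYF-domain protein of mRNA regulation, lay at 9.36, 10.19 and 9.87 in Canton-S, 7.88, 8.25 and 7.61 on the Act88FKM88 arrays and 7.58, 7.90 and 7.70 on the Mhc7 arrays. It fell by 1.98 ± 0.19 (adjusted p = 0.00107), with the mutants overlapping each other well below the controls. CG42323, l(2)34Fc, CG13920 and CG10126 fell by 2.60, 2.11, 2.07 and 1.88. All of these calls, and those of the 3 cuticle genes, were kept without any 1 array. CG13314 fell by 2.53 ± 0.63 (adjusted p = 0.0575), but Canton-S 3 at 4.27 was level with Mhc7 2 at 4.26. Its call failed on removing Mhc7 1, Mhc7 3, Act88FKM88 1, Canton-S 1 or Canton-S 2, and its adjusted p reached 0.244. CG5326 fell by 1.82 ± 0.45 and failed on removing Mhc7 3, Act88FKM88 1, Canton-S 1 or Canton-S 2, with a highest adjusted p of 0.243.

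Some pooled calls were set by 1 mutant. The gene pst was at 5.27 in Canton-S, 5.38 for Act88FKM88 and 10.39 for Mhc7. Polr1E, an RNA polymerase I subunit, was at 3.33, 7.17 and 3.49, and CG34324 at 3.54, 7.01 and 3.18. On the lower side, CG15617 was at 12.43 in Canton-S, 13.41 for Act88FKM88 and 3.94 for Mhc7. The beta-tubulin gene betaTub97EF was at 9.85, 3.28 and 10.45, and the seminal fluid protein gene Sfp53D at 6.58, 7.03 and 2.84. In these 6 genes 1 mutant stayed near Canton-S or moved to its other side, so the pooled value is an average of unlike differences. The calls for CG34324 and Sfp53D were also lost in 6 and 7 of the 9 fits without 1 array (adjusted p up to 0.285 and 0.231), and CG34324 with quantile normalization repeated.

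Lists for other tissues and responses gave few calls. None of 31 immune effector genes passed (median 0.09), nor any of 20 matrix and integrin (-0.01), 20 actin dynamics (0.10), 14 hemocyte (-0.01), 33 gut and Malpighian tubule (-0.04), 19 neuron and glia (0.08), 9 trachea (-0.04) or 113 eye and head genes (-0.04). At an unadjusted limma p under 0.05 there were 8 immune, 3 matrix, 6 actin dynamics, 2 hemocyte, 3 gut, 2 neuron and glia, 0 trachea and 10 eye and head genes, to be read against 19.4% of all genes. SAM, a permutation method run as an alternative, called 0 genes in each of the 19 lists without a limma call. It used the same 2-fold minimum, so in a list with no member at 2-fold this outcome was fixed in advance. The cytosolic ribosome list, with a highest difference of 0.72, is 1 such list. Of 50 testis and accessory gland genes Sfp53D fell (-0.06). Of 16 JNK, growth arrest and cell death genes Sesn, the stress-induced sestrin, rose by 1.19 ± 0.28 (list median 0.29); its call failed on removing Mhc7 3, Act88FKM88 1 or Canton-S 1, with a highest adjusted p of 0.209, and under both other scalings. Of 13 fat body genes the lipase gene bmm rose by 1.04 ± 0.29 (list median 0.09), a call lost under both other scalings and, with 1 array left out, kept only on removing Act88FKM88 3 or Canton-S 3, with a highest adjusted p of 0.301. The fat body markers Lsp2 and Fbp1 were at 0.31 and 0.82 in the pooled comparison without a call, and their part in the rises of bmm and NLaz was not tested.

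Called genes lay on all large chromosome arms. Higher calls made up 2.03% of genes on X, 2.13% on 2L, 1.81% on 2R, 2.01% on 3L and 1.68% on 3R. Over all genes this share was 1.9%. Lower calls numbered 1 of 1873 genes on X, 8 on 2L, 12 on 2R, 10 on 3L and 11 on 3R. Those were 0.0534%, 0.363%, 0.494%, 0.427% and 0.37% of the genes of each arm, beside 0.359% of all genes. Arm 4, with 65 genes, had 2 higher calls and 1 lower call.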

How the data were processed

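RNA of 9 arrays, 3 per genotype, was read from 1 table in which the authors deposited log2 values made by RMA (robust multi-array average), per the submitters' processing notes. The sources used here do not say whether RMA was run on the 9 arrays jointly. The table holds 18952 probe sets; 183 Affymetrix controls were left out and 18769 tested, with no minimum level. By the platform annotation 13647 of these name 1 gene, 402 several and 4720 none; 13544 were matched to a RefSeq symbol by gene ID. In gene lists the probe set with the highest mean stood for its gene. Precision is limited by the number of arrays, which have no read depth.

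Genotype means were estimated in 1 linear model over the 9 arrays (limma 3.58.1, R 4.3.3), and the contrasts were the mean of both mutants minus Canton-S and Act88FKM88 minus Mhc7. All p-values are two-sided. The pipeline was tested on simulated data. The members, the 44 gene lists and the tests were chosen with earlier results of these data known. A further 10 names that list patterns had caught wrongly were dropped. Named genes are Act88F, the 12 largest rises and falls with 1 gene and no overlap, the 3 most unequal each way, and from each list up to 3 that rose and 3 that fell (where none did, the 2 of smallest p); any other gene was picked once its values were known and is marked so. Alternatives were other thresholds, treat, SAM (written anew), the mutants as 1 group, a level filter, array weights, an intensity trend, both other scalings, all probe sets of a gene, the replicate block and each array left out. A planned search for promoter motifs was not run, because no sequences were used here.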

Additional observations from a re-analysis of the deposited data

Results flagged for a closer look

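The named genes below differed between the mutants in the direct contrast, which was tested with limma at the threshold of the report; values are Act88FKM88 minus Mhc7 on the log2 scale. With 3 arrays per genotype no test for single outlying arrays was made. Among genes that changed the same way in both mutants, CG8768 was higher in Act88FKM88 (2.38), as were l(2)34Fc (1.01) and Sec61gamma (1.25). GstD1 (-1.43), Cyp4e1 (-1.35), TER94 (-1.27), Afg3l2 (-1.16), mRpL4 (-1.54) and mRpL54 (-1.46) were lower there than in Mhc7. So was mEFTs (-1.12), but its Act88FKM88 arrays overlapped Canton-S, with differences of 0.53 in Act88FKM88 and 1.65 in Mhc7.

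In the rest 1 mutant carried most of the pooled value. These were pst (-5.01), mRF1 (-2.95), Polr1E (3.68), CG34324 (3.83) and the cytochrome P450 gene Cyp4e3 (3.19) among rises, and CG15617 (9.47), betaTub97EF (-7.17), Sfp53D (4.19), Obsc (-3.66) and Act88F (-2.70) among falls. Act88F is the gene mutated in Act88FKM88. For CG15617 and betaTub97EF 1 mutant lay near the array median and the other genotypes at 9.85 and above.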

How the results depend on the processing

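No result changed sign among those called. With no minimum fold 1329 probe sets were called (1035 higher, 294 lower, 310 also differing between the mutants), at 4-fold 42 (26, 16, 10), with treat 82 (59, 23, 18). SAM called 258, with 22 lower and 21 differing between the mutants. Taking the 6 mutant arrays as 1 group gave 219 (185, 34), repeated quantile normalization 196 (89, 107), and centring on cytosolic ribosomal protein genes 96 higher and 230 lower. Leaving out 1 array gave 227 to 448 calls, 183 to 375 higher, 43 to 73 lower, and 51 (without Mhc7 3) to 102 that differed between the mutants. The 95th percentile difference ranged from 0.45 to 0.56, and 0.45 without Canton-S 1 lost its call. With fewer arrays there are fewer splits, so the smallest possible p is larger than in the full test. Canton-S 2 and Canton-S 3 (7.35 and 7.47) still lay below every mutant array. The cause of the percentile difference was not tested. Of 74 named probe sets past the threshold 45 were kept in all 9 such fits. Replicate numbers did not pair the arrays (same-number correlations from -0.316 to 0.426); the replicate block gave 328 calls (274 higher, 54 lower), 314 of them shared with the 331, and 80 that differed between the mutants. Over all settings, named genes kept their call or its absence 1982 times, lost it 327 times and gained it 42 times. Levels near the array median limit how small a value can be read.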

Other observations

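After the calls had been read, 4 further lists were put together from genes seen among them and completed with other members of the same function. Their members were chosen after the values were seen, so the counts are a description and no test was made. Prefoldin hands unfolded actin and tubulin to the chaperonin. Of its 7 subunits and relatives 3 rose and none fell (median 0.91): Pfdn1 (1.41 ± 0.27), Pfdn2 (1.28 ± 0.16) and Pfdn5 (1.08 ± 0.23). Pfdn1 was at 0.72 in Act88FKM88 and 2.10 in Mhc7, and the mutants differed directly (adjusted p = 0.0564). Pfdn2 was at 1.13 and 1.43 and Pfdn5 at 0.84 and 1.32, without such a difference. Pfdn6 and mgr, which were not called, also differed directly, higher in Mhc7. The count was 2 without Canton-S 1 and 1 with quantile normalization repeated.

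Factors that assemble the respiratory chain or make its haem and iron-sulfur groups had 11 of 18 measured genes that rose and none that fell (median 1.04). The iron-sulfur gene bcn92 was at 7.35 in Canton-S, 9.29 for Act88FKM88 and 9.43 for Mhc7, and rose by 2.01 ± 0.19. The copper chaperone genes Scox and Cox17 rose by 1.52 ± 0.16 and 1.22 ± 0.13, and Alas, of haem synthesis, by 1.13 ± 0.12. FeCH, which inserts the iron, was at 7.20 in Canton-S, 7.27 for Act88FKM88 and 9.38 for Mhc7, so its call came from Mhc7. The count was 8 without Canton-S 1 and 2 with quantile normalization repeated.

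The list of 21 genes of amino acid synthesis and transport also held the synthetase gene GluProRS, described above. In it 5 rose and none fell (median 0.27). They were AsnS, the branched-chain aminotransferase gene Bcat (1.78 ± 0.29), the transporter subunit gene CD98hc (1.07 ± 0.10), Ahcy (1.03 ± 0.20) and GluProRS itself. Without Canton-S 1 the count was 2, and with quantile normalization repeated it was 1. Of 10 cuticle tanning genes 1 rose and 1 fell (median -0.05). They were l(2)37Bb (1.38 ± 0.20) and the dopa decarboxylase gene Ddc, which fell by 1.73 ± 0.40. The gene l(2)37Bb was at 0.79 in Act88FKM88 and 1.98 in Mhc7, and the mutants differed directly (adjusted p = 0.0365). For Ddc, Canton-S 3 at 4.55 was level with Act88FKM88 2 at 4.54, while Canton-S 1 and Canton-S 2 lay at 6.13 and 6.70.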
